A study of Homo sapiens with 6 samples.

Results

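The genes of homologous recombination and of the Fanconi anemia pathway were followed in HCT-116, an established human colorectal carcinoma cell line. Members were the 37 genes of a list of break sensors, recombination factors and Fanconi proteins, each found by its symbol among the 27918 gene and locus rows of the expression table. All 37 were found, and all 37 were among the 16028 rows with a mean of at least 0.1 FPKM (fragments per kilobase of transcript, scaled to library depth), which were tested together. Cells had been transfected with a negative control GapmeR (GapNC, 3 libraries) or with a GapmeR against CASC9, a long noncoding RNA (GapC9, 3 libraries). GapmeRs are antisense strands of DNA flanked by locked nucleic acid bases, and RNase H cuts the RNA with which they pair. All cells therefore carried a GapmeR and the transfection reagent, and no untransfected cells entered the comparison. The methods and the results of the study give different times between transfection and harvest, so no time is stated here. The comparison asks which transcripts differ after the GapmeR that targets CASC9. The cells are 1 line and the GapmeR against CASC9 is 1 sequence, so the design does not separate loss of the target from other effects of that sequence.

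Homologous recombination repairs a double-strand break by copying an intact sister chromatid. The MRE11, RAD50 and NBN complex and RBBP8 (CtIP) prepare the ends, the kinases ATM and ATR signal the damage, and BRCA1, PALB2 and BRCA2 act at the resected single-stranded DNA. The Fanconi pathway repairs DNA crosslinks: its core complex, with the ligase FANCL and the conjugating enzyme UBE2T, attaches ubiquitin to FANCD2 and FANCI, and nucleases held by SLX4 then cut the crosslinked strand. Many of these genes are most active in S and G2 phase.

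The libraries held 22.7 to 24.4 M fragments, as estimated from the steps between low FPKM values, so that 1 fragment on a transcript of 1 kb was worth 0.0410 to 0.0440 FPKM. CASC9 itself, the targeted gene, was listed at 0, 0.0108 and 0 FPKM in the GapNC libraries and at 0.0528, 0.107 and 0 FPKM in the libraries labelled GapC9. The target was thus near the limit of detection and showed no reduction where the label is GapC9, so the directions given here rest on the labels. Colon epithelial markers summed to 1049 to 1440 FPKM in GapNC and 1028 to 1291 FPKM in GapC9, with 8 of the 12 at 1 FPKM or more. Of these markers, CDX1, VIL1, KRT20 and LGR5 were near 0. Markers of fibroblasts, immune cells and endothelium summed to 54.4 to 61.5 FPKM in GapNC and 54.2 to 58.7 FPKM in GapC9, mostly from a CD68 row that also lists EIF4A1. The library GapNC replicate 1 stood apart in GC content. Across genes, the rank correlation of a library's deviation from the mean of all libraries with transcript GC content was 0.618 in that library and lay between -0.384 and 0.0216 in the other 5.

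FANCA, FANCC and MUS81 fell in the GapC9 libraries to 57.5% to 60.6% of their GapNC level, and no member passed the test in the higher direction. These 3 of 37 members (8.11%) had an adjusted p under 0.05 in limma, against 5.1% of all tested rows that were lower. Counts of genes that fell or rose, here and below, are of genes past this adjusted threshold. In the higher direction 0 members passed, against 1.89% of all rows, while 2 members (5.41%) had an unadjusted limma p under 0.05 there, against 9.09% of all rows. In the lower direction 10 members (27%) had an unadjusted p under 0.05, against 16.8% of all rows. No member reached the study's thresholds, a ratio of means of at least 2 or at most 0.5 with an unadjusted p under 0.05. Those thresholds called 4.32% of all rows lower and 2.1% higher. All differences of means among members were below 2-fold.

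The 3 GapC9 values lay below all 3 GapNC values for 13 members (35.1%), against 21.6% of all tested rows. They lay above them for 5 members (13.5%), against 12.6% of all rows. With the libraries scaled to a common median, 9 members lay below and 6 above, and with quantile normalization 9 and 7. The shares of all rows under these scalings are not given here. The median log2 change of the 37 members (GapC9 minus GapNC, on log2(FPKM + 0.1)) was -0.13, beside a median of -0.076 for all rows, and 24 members (64.9%) had a negative value, beside 56.4% of all rows. The members were expressed at low to moderate levels, with a median of 3.89 FPKM beside 2.38 FPKM for all tested rows. Of the 37, 4 averaged under 1 FPKM, 27 lay between 1 and 10 FPKM, 6 exceeded 10 FPKM and 0 were listed at 0 in a library. In bulk RNA, fewer cells of a kind (such as cells in S phase) and less RNA per cell cannot be told apart. No label says that the 3 libraries of a group came from separate cultures, so the p-values measure only the spread between these libraries.

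**Figure D1:**
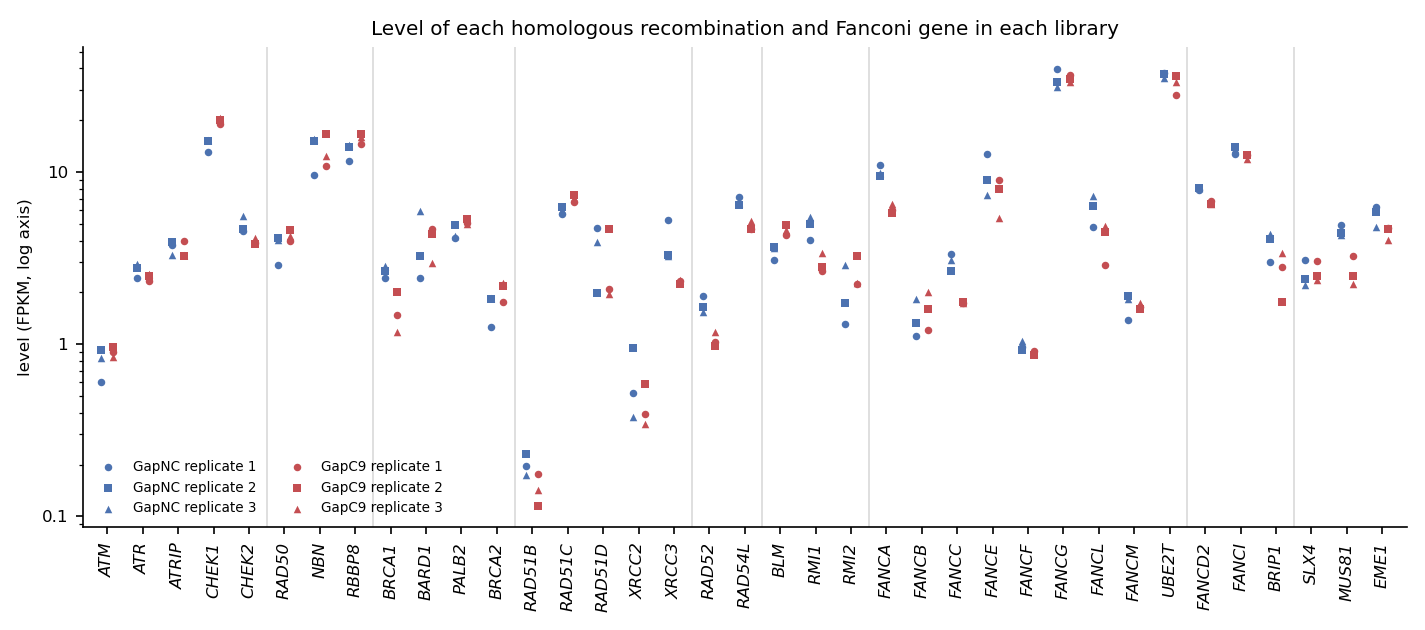
Level of each of the 37 genes in each library, in FPKM on a log axis, with genes ordered by role between the grey lines. Blue points are the 3 GapNC libraries and red points the 3 GapC9 libraries, with 1 symbol per replicate number, and levels run from RAD51B, at a mean of 0.172 FPKM, to the FANCG row, at 34.9 FPKM.

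FANCA, a large subunit of the Fanconi core complex, spans 89737549 to 89816657 of chromosome 16 on the minus strand (ENSG00000187741, GENCODE annotation of GRCh38). Its level was 11.0, 9.43 and 9.82 FPKM in GapNC (replicates 1, 2 and 3 in that order, as in all such lists) against 6.06, 5.75 and 6.52 FPKM in GapC9. Every GapNC library was well above every GapC9 library. The mean fell from 10.1 ± 0.812 to 6.11 ± 0.385 FPKM (SD, n = 3), and the log2 change was -0.71 (SE 0.11, limma adjusted p = 0.0274). The exons of FANCA overlap those of ZNF276 on the other strand, and the ZNF276 row had 3.92 FPKM in GapNC and 3.46 FPKM in GapC9. The use of strand in the counting is not stated, so reads of such overlaps cannot be assigned.

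FANCC, a core complex subunit that works with FANCE and FANCF, spans 95099054 to 95426796 of chromosome 9 on the minus strand (ENSG00000158169). Its level was 3.34, 2.65 and 3.09 FPKM in GapNC and 1.74, 1.76 and 1.73 FPKM in GapC9. The GapC9 libraries were nearly identical, all below the lowest GapNC library. The mean fell from 3.03 ± 0.349 to 1.74 ± 0.0174 FPKM (SD, n = 3), and the log2 change was -0.76 (SE 0.13, limma adjusted p = 0.0311). An antisense row that overlaps its exons, AL354893.2, averaged 0.522 FPKM in GapNC and 0.101 FPKM in GapC9 (log2 change -1.72, limma adjusted p = 0.0534).

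MUS81, the catalytic subunit of a nuclease that cuts branched DNA such as stalled forks and joint molecules, spans 65857126 to 65867653 of chromosome 11 on the plus strand (ENSG00000172732). Its level was 4.96, 4.43 and 4.32 FPKM in GapNC and 3.25, 2.50 and 2.24 FPKM in GapC9. The groups did not overlap, and the GapC9 libraries were spread more widely than those of FANCC. The mean fell from 4.57 ± 0.343 to 2.66 ± 0.527 FPKM (SD, n = 3), and the log2 change was -0.77 (SE 0.17), at the edge of the threshold (limma adjusted p = 0.0495). Its exons overlap the abundant CFL1 (cofilin) on the other strand, which averaged 102 FPKM in GapNC and 76.7 FPKM in GapC9 (log2 change -0.42, limma adjusted p = 0.173). What these overlaps contribute was not tested.

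With 1 library left out, most calls were lost while the sizes held. Without GapNC replicate 1, the library that stood apart, FANCA (limma adjusted p = 0.0386) and FANCC (0.0479) still passed and MUS81 did not. Without any one of the other 5 libraries none of the 3 passed, with adjusted p of up to 0.116 for FANCA, 0.118 for FANCC and 0.165 for MUS81. The log2 change stayed between -0.76 and -0.65 for FANCA, between -0.85 and -0.69 for FANCC and between -0.92 and -0.66 for MUS81 in these 6 fits. Leaving out any one of those 5 libraries lowered the number of all rows called lower from 817 to between 17 and 70, so the lost calls are not particular to these genes.

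**Figure D2:**
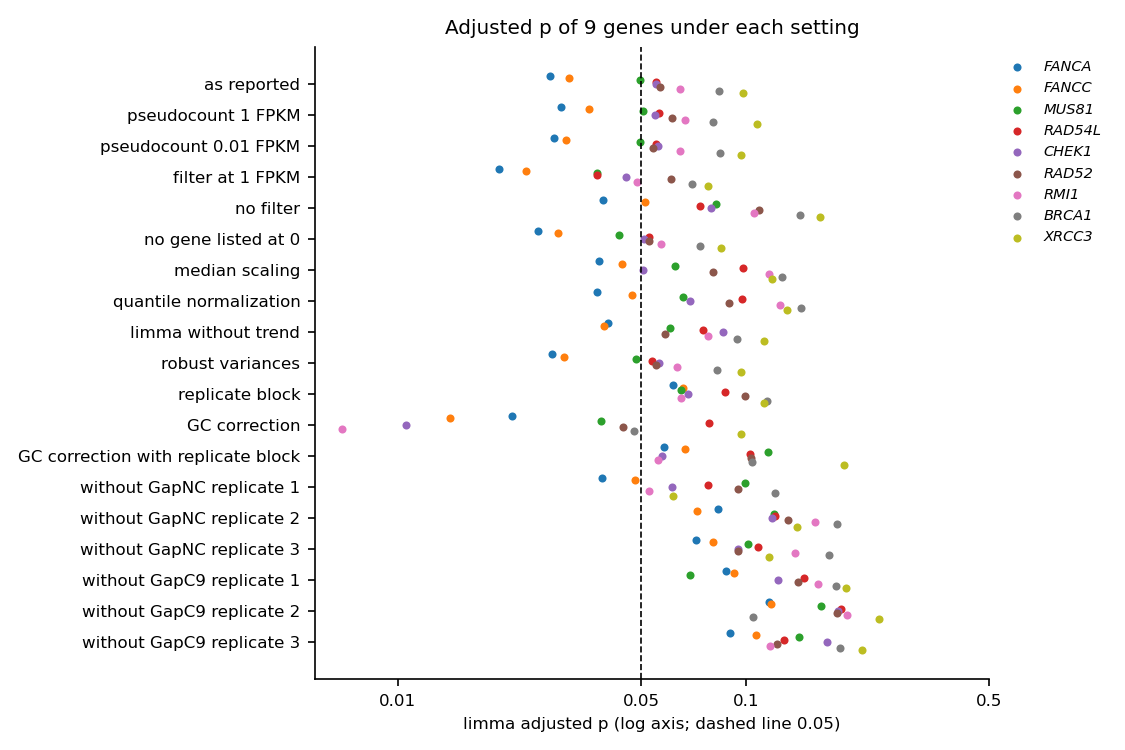
Limma adjusted p, on a log axis, of the 9 members with the smallest values, under the reported setting and each alternative (1 line of points per setting, 1 color per gene). Points left of the dashed line at 0.05 pass. FANCA and FANCC pass in most settings that keep all 6 libraries, but under a replicate block, with or without the GC correction, no gene passes.

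Sequences before a RefSeq start of each of the 3 genes that fell are shown because the E2F and CCAAT letters found in them are known from promoters of genes active in S phase and G2. They were read from RefSeq promoters of GRCh38.p14, are written 5′ to 3′ on the strand of the gene, and carry the matched letters in capitals. The searched letters were TTTCGCGC, TTTGGCGC, TTTCCCGC and TTTGCCGC for E2F, CCAAT for the box bound by NF-Y, and TTTGAA for the cell cycle homology region (CHR), on both strands, from 250 bases before to 50 bases after each annotated start. The FANCA stretch covers chr16:89816664-89816831 and holds 1 E2F match on the reverse strand and 1 CCAAT. The FANCC stretch covers chr9:95317736-95317893 and holds 2 E2F matches, the first of them on the reverse strand. The MUS81 stretch covers chr11:65860183-65860211 and holds 1 CCAAT far from the start. GENCODE lists other transcripts of FANCC and MUS81 that start farther upstream, so these stretches lie within the spans given above, and that of MUS81 lies in an exon of another of its transcripts.
FANCA: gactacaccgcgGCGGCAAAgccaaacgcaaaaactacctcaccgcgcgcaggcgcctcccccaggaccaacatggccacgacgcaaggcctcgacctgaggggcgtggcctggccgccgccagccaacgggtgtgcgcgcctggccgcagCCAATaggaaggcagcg
FANCC: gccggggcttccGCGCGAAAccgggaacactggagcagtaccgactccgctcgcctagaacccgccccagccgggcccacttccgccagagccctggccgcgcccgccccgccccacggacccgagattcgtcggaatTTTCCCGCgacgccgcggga
MUS81: gtgtccctcccaCCAATacgtttgcaccc

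Promoters were found for 34 of the 37 members, all but FANCI, NBN and RMI2. E2F letters were present for 5 of these 34 genes (14.7%), against 3.99% of 27305 genes with a promoter in the table (3.31% of 35116 promoters). The 5 were FANCA, FANCC, FANCD2, RMI1 and XRCC2. CCAAT was present for 16 genes (47.1%), against 39.7% of all genes, and the CHR letters for 4 genes (11.8%), against 18.2%. A match describes letters only. The log2 changes of the 5 genes with E2F letters ran from -0.76 in FANCC to -0.28 in FANCD2. Of these 5, only FANCA and FANCC passed the test, and the match of FANCD2 lies across the start and that of XRCC2 after it. The changes ran from -0.77 in MUS81 to 0.46 in the CHEK1 row for the 16 genes with CCAAT. For the 4 genes with CHR letters they ran from -0.76 in FANCC to 0.19 in ATM. A link between letters and change was not tested.

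Among the damage kinases and their effectors, no member passed the test. ATM, the kinase activated by double-strand breaks, was one of the lowest members. It had 0.605, 0.925 and 0.834 FPKM in GapNC and 0.901, 0.959 and 0.847 FPKM in GapC9, and the groups overlapped. Its exons overlap NPAT, among other genes, on the other strand, and NPAT fell from 2.58 to 1.45 FPKM (limma adjusted p = 0.0377). Exons of 19 members overlap a gene on the other strand, and only some of these genes are named here. ATR, the kinase that answers single-stranded DNA at stalled forks, had 2.41, 2.78 and 2.94 FPKM in GapNC and 2.33, 2.50 and 2.55 FPKM in GapC9, also overlapping. The row of its partner ATRIP, which also lists AC134772.2 and TREX1, ranged from 3.26 to 3.97 FPKM over the 6 libraries.

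The effector kinases lay apart in the direction of their means. The CHEK1 row, the effector of ATR, had 13, 15.1 and 15.3 FPKM in GapNC and 19.1, 20.2 and 20.6 FPKM in GapC9, with every GapC9 library higher. Its log2 change was 0.46 (SE 0.10), just short of the threshold (limma adjusted p = 0.0552). This row is a merged locus that also lists STT3A, an oligosaccharyltransferase subunit, so the values belong to both genes and cannot be given to CHEK1 alone. CHEK2, the effector of ATM, averaged 4.95 ± 0.544 FPKM in GapNC and 3.95 ± 0.152 FPKM in GapC9 (SD, n = 3), without overlap (log2 change -0.31, limma adjusted p = 0.171). Known CHEK2 pseudogenes share its sequence, so its level is uncertain.

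The genes that sense and resect ends did not pass in either direction. The RAD50 row, which also lists C5orf56 and AC116366.3, ranged from 2.88 to 4.62 FPKM. NBN, which tethers the MRE11 complex to ATM, had 9.64, 15.1 and 15.7 FPKM in GapNC and 10.9, 16.7 and 12.5 FPKM in GapC9. The spread within each group was larger than the difference of the means. RBBP8, the resection factor CtIP, had 11.7, 14.1 and 14.3 FPKM in GapNC and 14.5, 16.8 and 15.9 FPKM in GapC9. Its lowest GapC9 value was just above its highest GapNC value, and the log2 change was 0.24 (limma adjusted p = 0.277).

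**Figure D3:**
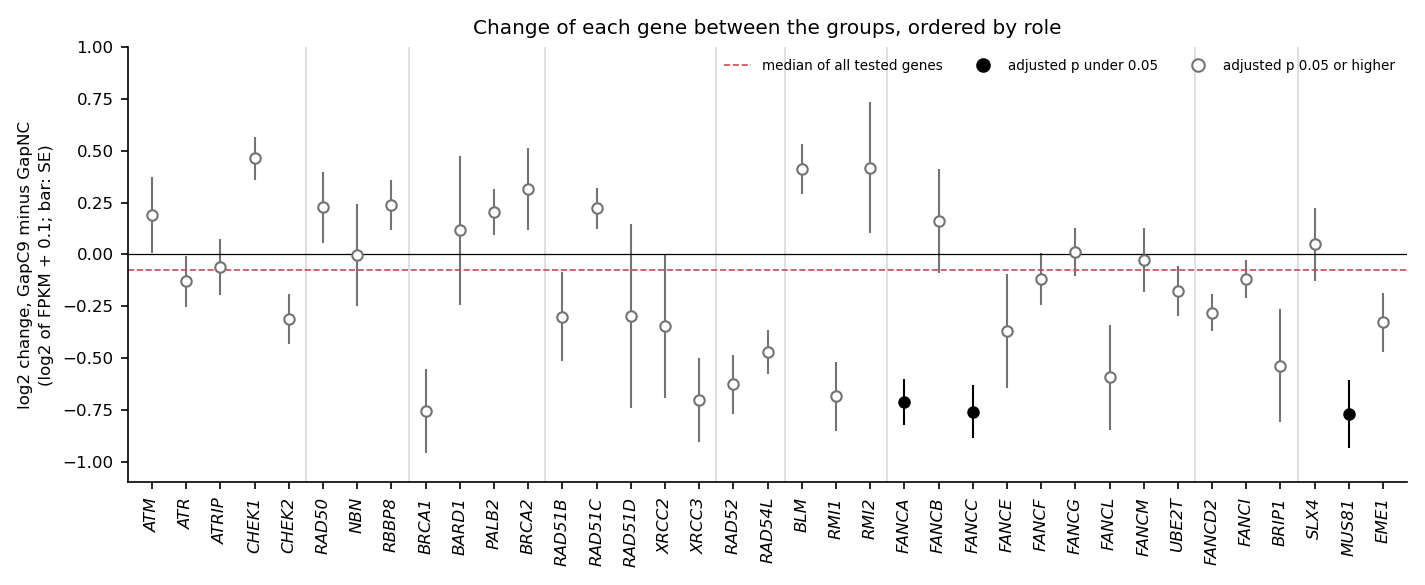
Log2 change of each gene (GapC9 minus GapNC, on log2 of FPKM + 0.1) with its limma standard error, in the order of roles used in the plot of levels. Filled points mark FANCA, FANCC and MUS81, which had an adjusted p under 0.05, and the dashed line is the median of all tested rows, at -0.076.

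BRCA1 and its partners had means in different directions, and none passed the test. BRCA1, the scaffold that promotes resection and recruits PALB2, had 2.41, 2.67 and 2.85 FPKM in GapNC and 1.48, 2.0 and 1.18 FPKM in GapC9. All GapC9 values were lower, at 58.8% of GapNC in the mean, but the spread in GapC9 left the log2 change of -0.76 (SE 0.20) short of the threshold (limma adjusted p = 0.0838). The row also lists AC060780.1. BARD1, with which BRCA1 forms its ubiquitin ligase, ranged from 2.41 to 5.98 FPKM in GapNC and from 2.97 to 4.66 FPKM in GapC9.

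PALB2, which links BRCA1 to BRCA2, had 4.17, 4.92 and 4.23 FPKM in GapNC and 5.06, 5.31 and 4.99 FPKM in GapC9. These groups did not overlap, with a log2 change of 0.20 (SE 0.11, limma adjusted p = 0.307). BRCA2, a mediator of strand exchange, had 1.26, 1.84 and 1.86 FPKM in GapNC and 1.76, 2.17 and 2.27 FPKM in GapC9. Its log2 change was 0.32 (SE 0.20, limma adjusted p = 0.365), and its lowest GapC9 library lay within the GapNC range.

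The genes RAD51B, RAD51C, RAD51D, XRCC2 and XRCC3, whose products form complexes that assist strand exchange, included the 2 lowest levels of all members. RAD51B was the lowest member of all, with 0.197, 0.229 and 0.174 FPKM in GapNC and 0.175, 0.116 and 0.142 FPKM in GapC9. These values correspond to only 7.26 to 13.9 fragments per library on its listed transcript, so the values of RAD51B rest on few reads. XRCC2 had 0.519, 0.957 and 0.377 FPKM in GapNC and 0.392, 0.592 and 0.346 FPKM in GapC9, with 38.8 to 106 fragments. RAD51C, which takes part in more than 1 of these complexes, averaged 6.02 ± 0.285 FPKM in GapNC and 7.04 ± 0.302 FPKM in GapC9 (SD, n = 3), with all GapC9 libraries higher (log2 change 0.22, limma adjusted p = 0.218).

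XRCC3, the partner of RAD51C, went the other way in its means. It averaged 3.93 ± 1.13 FPKM in GapNC and 2.32 ± 0.0663 FPKM in GapC9 (SD, n = 3), without overlap (log2 change -0.70, limma adjusted p = 0.0978). GapNC replicate 1 was highest, at 5.24 FPKM, and XRCC3 has the highest GC content of the members, 63.8%. The RAD51D row also lists RFFL and AC004223.3 and varied from 1.97 to 4.71 FPKM, with values from both ends of this range in each group.

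The strand annealing factor RAD52 and the motor RAD54L, which drives strand exchange, both lay lower in every GapC9 library. RAD52, in a row that also lists AC004803.1, had 1.90, 1.66 and 1.54 FPKM in GapNC and 1.04, 0.979 and 1.18 FPKM in GapC9. Its log2 change was -0.63 (SE 0.14, limma adjusted p = 0.0565). RAD54L averaged 6.74 ± 0.374 FPKM in GapNC and 4.84 ± 0.305 FPKM in GapC9 (SD, n = 3), with a log2 change of -0.47 (SE 0.11, limma adjusted p = 0.0550). Both missed the threshold narrowly.

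The subunits of the complex that dissolves double Holliday junctions differed most from each other. BLM, its helicase, averaged 3.45 ± 0.330 FPKM in GapNC and 4.62 ± 0.292 FPKM in GapC9 (SD, n = 3), with every GapC9 library higher (log2 change 0.41, limma adjusted p = 0.101). RMI1, its scaffold, averaged 4.83 ± 0.744 and 2.96 ± 0.396 FPKM in the same order, with every GapC9 library lower (log2 change -0.68, limma adjusted p = 0.0645). RMI2, the small subunit bound to RMI1, ranged from 1.3 to 2.91 FPKM in GapNC and from 2.23 to 3.24 FPKM in GapC9.

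Within the Fanconi core complex, 7 of 9 members had a negative log2 change, and FANCA and FANCC were the 2 that passed. Over all tested rows, 56.4% were negative and 5.1% were called lower. The levels of the other 7 ran from FANCF, under 1 FPKM, to the FANCG row. The FANCG row was the highest of all members, with 39.8, 33.4 and 31.4 FPKM in GapNC and 36.6, 34.7 and 33.6 FPKM in GapC9, but it is merged with VCP, an abundant ATPase, and cannot be read as FANCG alone. UBE2T, the conjugating enzyme of the pathway, had 37.7, 37.0 and 35.0 FPKM in GapNC and 28.1, 36.2 and 33.2 FPKM in GapC9, overlapping. FANCL, the ligase that works with it, averaged 6.14 ± 1.26 and 4.08 ± 1.06 FPKM (SD, n = 3), also overlapping (log2 change -0.59, limma adjusted p = 0.206).

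FANCF, an adaptor of the core and a gene of 1 exon, had 0.966, 0.930 and 1.05 FPKM in GapNC and 0.918, 0.867 and 0.895 FPKM in GapC9. The gap between the groups was small, with a log2 change of -0.12 (SE 0.13). FANCE, which binds FANCD2, ranged from 7.32 to 12.8 FPKM in GapNC and from 5.40 to 8.99 FPKM in GapC9. FANCB, an X-linked subunit, ranged from 1.12 to 2.01 FPKM and FANCM, the translocase that anchors the complex to DNA, from 1.38 to 1.92 FPKM over all 6 libraries.

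The substrates of the core complex were measured tightly. FANCD2 had 7.88, 8.14 and 8.13 FPKM in GapNC and 6.76, 6.56 and 6.5 FPKM in GapC9. All GapC9 libraries were lower and the spread within groups was small, with means of 8.05 ± 0.146 and 6.61 ± 0.137 FPKM (SD, n = 3), and the log2 change was -0.28 (SE 0.09, limma adjusted p = 0.118). FANCI, its partner in the ID2 clamp, had 12.7, 13.9 and 13.6 FPKM in GapNC and 12.5, 12.6 and 11.9 FPKM in GapC9, a log2 change of -0.12 (limma adjusted p = 0.461). BRIP1, the helicase FANCJ that binds BRCA1, ranged from 2.99 to 4.36 FPKM in GapNC and from 1.77 to 3.38 FPKM in GapC9. A FANCD2 pseudogene shares sequence with FANCD2.

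Of the structure-specific nuclease genes, MUS81 fell, as described above. EME1, the partner that MUS81 needs for cutting, averaged 5.65 ± 0.75 FPKM in GapNC and 4.47 ± 0.388 FPKM in GapC9 (SD, n = 3), without overlap (log2 change -0.33, limma adjusted p = 0.211). Its exons overlap LRRC59 on the other strand, which averaged 107 FPKM in GapNC and 48.6 FPKM in GapC9 (log2 change -1.02, limma adjusted p = 0.181). What this overlap contributes to the EME1 values was not tested. SLX4, the scaffold for MUS81 and other nucleases, ranged from 2.21 to 3.10 FPKM in GapNC and from 2.38 to 3.05 FPKM in GapC9.

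Ratios of partner genes within a library cancel any factor common to both genes. The 10 pairs, chosen after the values were seen, are described without a test. RMI1 to BLM was 1.31, 1.36 and 1.51 in GapNC and 0.614, 0.570 and 0.741 in GapC9, so that RMI1 was the more abundant per length in every GapNC library and BLM in every GapC9 library. RMI1 to RMI2 averaged 2.62 ± 0.638 and 1.19 ± 0.321 (SD, n = 3). BRCA1 to BARD1 was 1.0, 0.825 and 0.476 in GapNC and 0.319, 0.460 and 0.398 in GapC9, which nearly touched. XRCC3 to RAD51C averaged 0.660 ± 0.221 and 0.330 ± 0.0213 (SD, n = 3).

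FANCD2 to FANCI was the steadiest ratio, at 0.601 ± 0.0191 in GapNC and 0.536 ± 0.0135 in GapC9 (SD, n = 3). MUS81 to EME1 averaged 0.814 ± 0.0750 and 0.595 ± 0.0819, and exons of both genes overlap an abundant gene on the other strand. In these 6 pairs every GapC9 ratio lay below every GapNC ratio. Inverting a ratio turns below into above, so their shared direction follows from the chosen order of the genes. RMI1 enters more than 1 pair, and the share of other gene pairs without overlap was not computed. The ratios of RAD50 to NBN, PALB2 to BRCA2, FANCC to FANCE and UBE2T to FANCL overlapped between the groups.

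**Figure D4:**
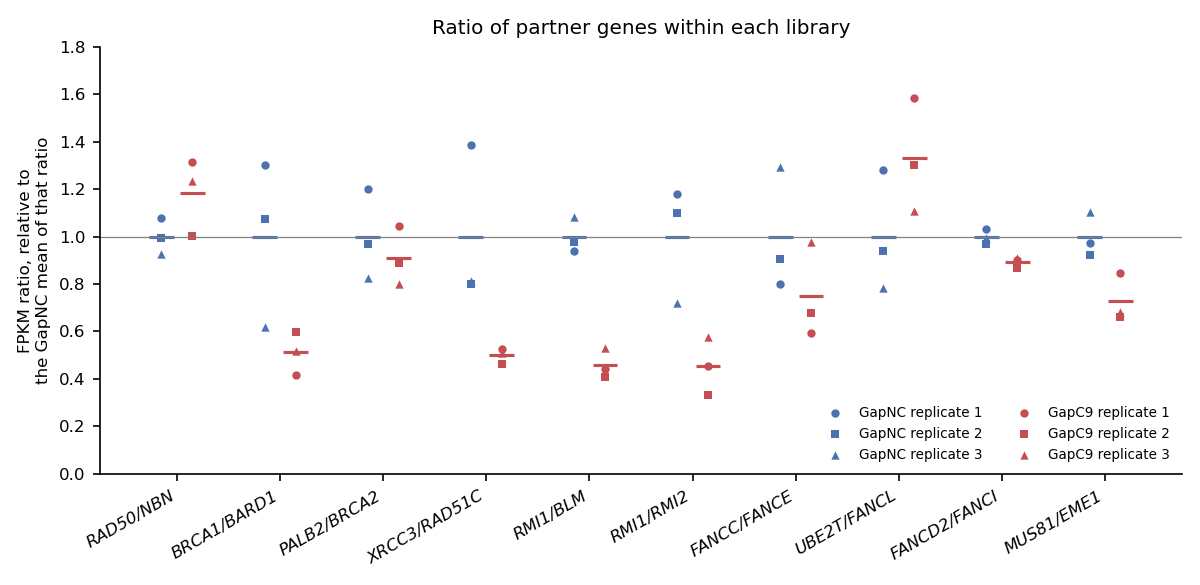
Ratio of FPKM of 10 pairs of partner genes in each library, divided by the GapNC mean of that ratio, on an axis from 0. Points are libraries and bars group means. For RMI1 to BLM the GapC9 mean is 46.1% of the GapNC mean, and for FANCD2 to FANCI it is 89.2%.

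The direction of a member went with its GC content. Of the 19 members at or above the median GC content of the members (43.4%), 16 had a negative log2 change, with a median of -0.30. Of the 18 below it, 8 were negative, with a median of 0.14. Across the 37 members the rank correlation of GC content with the log2 change was -0.33, and across all rows with a mean of at least 1 FPKM it was -0.336, a description across genes that share the same 6 libraries. Within the members, a library's deviation correlated with GC content at 0.722 in GapNC replicate 1, at -0.0436 and -0.207 in the other GapNC libraries, and at 0.0740, -0.384 and -0.502 in GapC9. RMI1 (36.0% GC) and BRCA1 (41.9% GC) were among the lower genes despite a GC content below the median. With a GC correction of each library, the members with an adjusted p under 0.05 numbered 7 lower (18.9%; FANCA, FANCC, MUS81, BRCA1, RAD52, RMI1 and FANCD2) and 2 higher (5.41%; the CHEK1 row and BLM). In the same fit 7.71% of all rows were called lower and 7.12% higher. The correction reduced the size of the log2 change of FANCA (from -0.71 to -0.51), FANCC (from -0.76 to -0.64) and MUS81 (from -0.77 to -0.53). It was larger in size for RMI1 (-0.85) and BRCA1 (-0.80), and nearly unchanged for RAD52 (-0.64) and FANCD2 (-0.28).

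**Figure D5:**
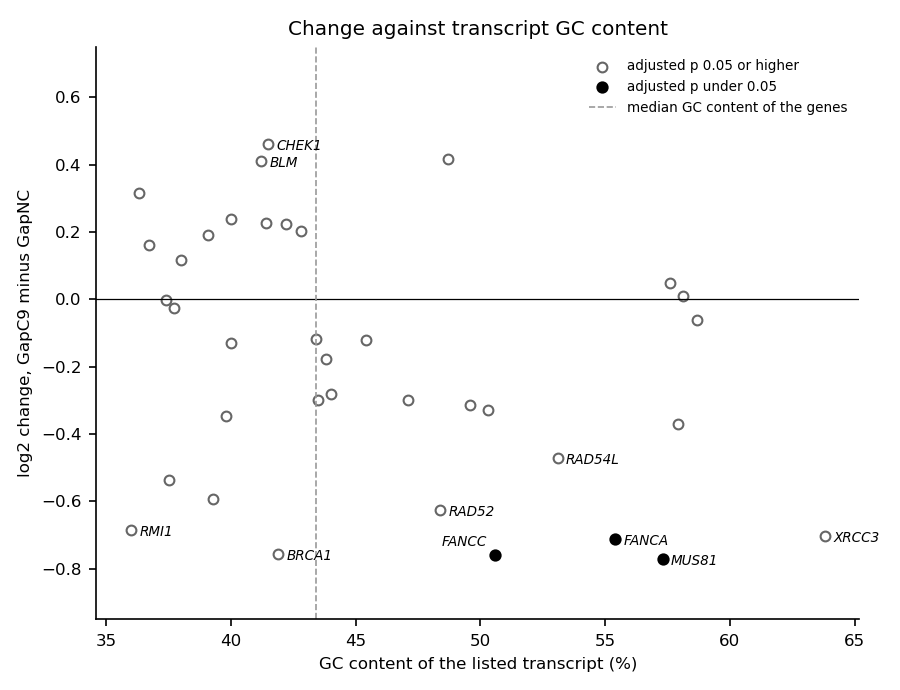
Log2 change of each of the 37 genes (GapC9 minus GapNC) against the GC content of its listed transcript in percent, with the median GC content of the genes as a dashed line at 43.4%. Filled points are FANCA, FANCC and MUS81, all on the GC-rich side, and most open points on that side also lie below 0.

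Other genes of the same pathways were called lower at shares of 5.13% to 10.5%, against 5.1% of all rows. Of 39 further homologous recombination genes tested, 2 fell, 0 rose and the median log2 change was -0.097. WRN, a helicase of the RECQ family, fell from 6.53 ± 0.380 to 3.74 ± 0.200 FPKM (SD, n = 3; log2 change -0.79, limma adjusted p = 0.0211). EME2, the other partner of MUS81, fell from 3.06 ± 0.883 to 1.28 ± 0.115 FPKM (log2 change -1.16, limma adjusted p = 0.0368). The nuclease MRE11 averaged 2.37 ± 0.357 and 2.69 ± 0.378 FPKM (log2 change 0.17, limma adjusted p = 0.555).

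Of 18 further Fanconi and crosslink repair genes, 1 fell, 0 rose and the median was -0.12. It was REV3L, the catalytic subunit of the translesion polymerase zeta, which fell from 3.57 ± 0.508 to 1.39 ± 0.249 FPKM (SD, n = 3; log2 change -1.30, limma adjusted p = 0.0216). Of 19 further checkpoint and break signaling genes, 2 fell, 0 rose and the median was -0.025. CDC25A, a phosphatase that CHEK1 and CHEK2 turn off, fell from 15 ± 0.571 to 8.75 ± 0.0951 FPKM (log2 change -0.77, limma adjusted p = 0.0166), and RNF8, a ubiquitin ligase at breaks, from 3.84 ± 0.0792 to 2.59 ± 0.231 FPKM (log2 change -0.55, limma adjusted p = 0.0454).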

How the data were processed

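RNA-seq of 6 HCT-116 libraries was used, 3 GapNC and 3 GapC9. The authors aligned reads and deposited FPKM values computed by StringTie for 27918 genes and loci, of which 1063 rows list several genes (7 member rows). The submitters' processing notes name HISAT2 2.0, StringTie 1.3.0 and Bowtie 0.12.2, and the mouse build mm8, although the samples are human. Positions printed here were therefore taken from GENCODE through the human transcript identifiers in the table. The annotation and the use of strand are not given in the sources used here. The authors' edgeR calls were not rerun, as the table holds no counts.

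In R 4.3.3, limma 3.58.1 (lmFit and eBayes with trend) was fitted to log2(FPKM + 0.1) of the 16028 rows that averaged 0.1 FPKM or more, with Benjamini-Hochberg adjustment over all of them. The understatement of changes by the pseudocount is largest for low genes. The script was tested on simulated data. GC content, length and positions came from GENCODE (GRCh38) and promoters from RefSeq, read in Python 3.11.15. The alternatives were other pseudocounts (1 and 0.01), filters, scalings and variance models, a replicate block, a GC correction (lowess, span 0.3), another member list made from the table's KEGG column, and each library left out.

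Every member is named, and values in every library are given for members that passed, past the study's thresholds or listed at 0, for the 5 highest and 5 lowest, and for BRCA1, BRCA2, PALB2, ATM, ATR, FANCD2 and FANCI. Genes of other lists are named where they passed, with MRE11 and with the end joining genes POLQ and XRCC5, which narrowly missed the threshold. A further gene of that rule is not reported here. The members and lists were chosen with earlier results of these data known.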

Additional observations from a re-analysis of the deposited data

How the results depend on the processing

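The number of members called lower (3) became 5 with a filter at 1 FPKM (8.7% of all rows lower) and 1 with no filter (1.24%). It was 2 with a pseudocount of 1 FPKM (4.65%), median scaling (3.12%), quantile normalization (3.22%) and limma without trend (4.12%). In these fits FANCA and FANCC passed and MUS81 did not. The number was 7 with the GC correction (7.71%) and 0 with the replicate block, with or without the GC correction. Of 18 alternative settings, FANCA passed in 11, FANCC in 10 and MUS81 in 5. The KEGG member list gave 5, but it is longer, so the counts are not comparable. Of its tested rows, 5 of 51 in the Fanconi pathway (9.8%) and 1 of 40 in homologous recombination (2.5%) were lower, against 5.1% of all rows. These KEGG sets share genes. The number called higher (0) became 1 with the filter at 1 FPKM (3.03% of all rows higher) and 2 with the GC correction (7.12%). Leaving out 1 library gave 0 to 2 lower calls, with 573 rows called lower in all without GapNC replicate 1 and 17 to 70 without any other library. The replicate block alone left 0 rows with an adjusted p under 0.05 in either direction, while 672 rows were lower and 328 higher at the study's thresholds. Correlations of same-numbered libraries (0.102, 0.0497 and 0.0272) do not show that the numbers pair the libraries. The median log2 change of the members was -0.020 with median scaling, where that of all rows was 0.034 and calls over all rows were 500 lower and 398 higher (817 and 303 as reported), and -0.069 with quantile normalization, where that of all rows was 0.0042. The members with a negative log2 change numbered 21 with median scaling and 19 with quantile normalization (24 as reported). In 28 of 37 members, among them the 12 with an unadjusted p under 0.05, the direction held in every setting. It turned for ATRIP (0.048 with median scaling, 0.064 with quantile normalization, 0.20 with the GC correction, with or without the block), NBN (0.11 and 0.047 with the 2 scalings), FANCM (0.083 and 0.12 with the 2 scalings), ATR (0.0035) and FANCF (0.0030) with quantile normalization, and BARD1 (-0.014 with the GC correction, with or without the block). With 1 library left out it also turned for NBN (-0.22 to 0.13), FANCM (-0.16 to 0.058), BARD1 (-0.17 to 0.47), FANCG (-0.060 to 0.11), SLX4 (-0.055 to 0.19) and FANCB (-0.0068 to 0.34). The cause was not tested. Genes near the filter, such as RAD51B, are the least precise, and no counting error can be given without counts.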

Other observations

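End joining, in its several forms, is the other main route of double-strand break repair. Of 14 tested genes listed for end joining, 2 (14.3%) rose and 0 fell, against 1.89% and 5.1% of all rows. The median log2 change was -0.071, 8 of the 14 were negative, and the GapC9 libraries lay wholly below GapNC for 6 genes and wholly above for 2. POLQ averaged 2.75 FPKM in GapNC and 1.39 FPKM in GapC9 (log2 change -0.95, limma adjusted p = 0.05003). XRCC5 averaged 90.2 and 65.9 FPKM in the same order (log2 change -0.45, limma adjusted p = 0.0507). POLQ and XRCC5 thus just missed the threshold in the lower direction. LIG4, the ligase that seals the ends, had 2.96, 4.03 and 4.02 FPKM in GapNC and 6.45, 7.11 and 7.5 FPKM in GapC9 (log2 change 0.93, SE 0.16, limma adjusted p = 0.0314). Its stabilizing partner XRCC4 had 15.5, 19.2 and 18.7 FPKM in GapNC and 27.3, 28.5 and 28.4 FPKM in GapC9 (log2 change 0.66, SE 0.11, limma adjusted p = 0.0314). Both missed the threshold with no filter on low values (limma adjusted p = 0.0514 and 0.0504), under the replicate block (0.0608 and 0.0618) and without any one library other than GapNC replicate 1.

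Of 37 rows of 36 DNA replication genes (TYMS has 2 rows), 3 (8.11%) fell and 0 rose, with a median log2 change of -0.18. POLA1, the catalytic subunit of the polymerase that primes synthesis, fell from 7.26 ± 0.471 to 3.59 ± 0.487 FPKM (SD, n = 3; log2 change -1.0, limma adjusted p = 0.0210). GINS4, a subunit of the replicative helicase, fell from 2.89 ± 0.580 to 1.34 ± 0.12 FPKM (log2 change -1.04, limma adjusted p = 0.0311), and RFC5, a subunit of the clamp loader, from 24.4 ± 1.01 to 17.2 ± 0.126 FPKM (log2 change -0.50, limma adjusted p = 0.0308). Of 30 genes of G2 and mitosis, 0 passed the limma test in either direction, and their median log2 change was -0.019.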
